A study of Mus musculus with 10 samples.

Results

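The genes that encode ribosomal proteins were followed in mouse kidneys with and without Ehhadh, in 2 sets kept apart. The cytosolic set holds symbols made of Rpl or Rps, a number and at most 1 letter, together with Rplp0, Rplp1, Rplp2 and Rpsa. The mitochondrial set holds symbols made of Mrpl or Mrps and a number. Of 24062 genes in the count table, 81 had a cytosolic and 77 a mitochondrial name. CPM is the count per M counts in the library, after TMM scaling of the library totals. A mean of 1 CPM or more over the 8 C57BL/6N libraries kept 79 cytosolic and 77 mitochondrial members, 156 in all. Rpl10l (0 CPM) and Rpl39l (0.003 CPM) fell outside that limit, and the members nearest to it on the inside were Rpl3l (2.40 CPM), Mrpl47 (13.4 CPM) and Rps4l (14.0 CPM). All 156 members were among the 15547 genes tested.

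The product of Ehhadh is the L-bifunctional enzyme of peroxisomes, which hydrates and then dehydrogenates acyl-CoA chains as they are shortened. Polyadenylated RNA from whole kidneys of adult males was sequenced: 4 Ehhadh KO and 4 WT animals of strain C57BL/6N, and 1 WT animal each of strains 129S2_SvPasCrl and DBA_2J. In 3 pairs of animals, each pair of 1 genotype, the titles open with the same number, and KO and WT titles have no opening number in common. The labels leave its meaning unstated, so what it marks and the genotype cannot be told apart, and the p-values treat the 4 animals of a group as independent. The allele and the age in weeks are not given in the sources used here. Whole kidney mixes many cell types, so fewer cells of a type and less RNA per cell cannot be told apart.

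The cytosolic ribosome joins a small subunit, which reads the messenger RNA, to a large subunit, which forms peptide bonds. Messenger RNAs of its proteins begin with an oligopyrimidine tract (TOP), through which mTORC1 and LARP1 control their translation. Mitochondria have ribosomes of their own, which make membrane proteins of the respiratory chain. All proteins of those ribosomes come from nuclear genes and are imported, and some have no bacterial counterpart. Kidney tubules depend on mitochondrial respiration for transport.

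Libraries held 19.79 to 57.25 M counts. KO libraries were deeper than WT libraries (47.2 ± 4.82 M against 29.8 ± 6.98 M, mean ± SD, n = 4 each, two-sided exact permutation p = 0.0286). In a check of the labels, Ehhadh read 285, 331, 248 and 176 CPM in the 4 KO libraries and 3439, 2232, 2100.2 and 2197 CPM in the 4 WT libraries. The 7 kidney tubule and glomerulus markers were read in every library. Lrp2, Slc12a1, Slc12a3 and Aqp2, of those 7, were called lower in KO, against 4.68% of all tested genes. The log2 fold changes of the 7 ran from −1.09 to 0.17, with a median of −0.39. Their list summed to 9811 to 12042 CPM in KO and 11317 to 11827 CPM in WT. None of 5 immune and endothelial markers was called (summed 30.4 to 47.9 CPM in KO and 39.0 to 46.6 CPM in WT). Of the 5, 4 had higher KO estimates, with Cd68 of macrophages (log2 fold change 0.65, adjusted p = 0.103 in edgeR) and Cd3e of T cells (1.42, adjusted p = 0.185, with a KO mean of 0.463 CPM beside 0.198 CPM) at an unadjusted p under 0.05, and Pecam1 of endothelium stood at −0.22. Of 5 markers of other tissue or blood, 4 were tested and none was called. All 4 had lower KO estimates (log2 fold change −1.37 to −0.10), 1 of them at an unadjusted p under 0.05 in edgeR. The 5 summed to 693 to 1528 CPM in KO and 963 to 1437 CPM in WT. Myh2 of skeletal muscle, among these 5, was at 0 in 7 of the 8 libraries. Whether the cell types that these markers stand for have a part in the values of the ribosomal protein genes was not tested.

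The start regions of the 4 members with the smallest adjusted p among those with higher KO estimates are shown first, from 60 bases before the RefSeq start to 20 bases after it. They were read on the gene's strand in GRCm38.p6, and in these 4 genes the RefSeq start was also the first base counted. Of these, Rps9 and Rpl12 were called higher in KO, and Mrpl33 and Rps2 came next without a call. Capitals mark TATAA, a run of 8 or more pyrimidines, or CGGAAG, the core recognised by ETS factors. The windows lie at chr7:3703981-3704060 (Rps9), chr2:32961652-32961731 (Rpl12), chr17:24720003-24720082 (Rps2) and chr5:31613891-31613970 (Mrpl33), all on the plus strand.
Rps9: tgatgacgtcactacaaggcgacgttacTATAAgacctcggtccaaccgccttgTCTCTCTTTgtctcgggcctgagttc
Rpl12: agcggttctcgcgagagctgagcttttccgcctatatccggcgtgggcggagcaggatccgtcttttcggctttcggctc
Rps2: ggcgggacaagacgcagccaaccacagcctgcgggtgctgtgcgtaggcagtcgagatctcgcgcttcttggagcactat
Mrpl33: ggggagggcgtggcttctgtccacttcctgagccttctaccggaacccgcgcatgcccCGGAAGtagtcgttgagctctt
Rps9 held a pyrimidine run across its start and a TATAA upstream of it. Mrpl33 held CGGAAG across its start, and no searched letters occurred in the windows of Rpl12 and Rps2. Pyrimidine runs under 8 bases were not marked, so an unmarked window does not show that a message lacks a TOP.

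Over the longer windows of the RefSeq table (250 bases before to 50 after the start), 58 of 79 cytosolic members matched with 70 promoters and 68 of 77 mitochondrial members with 74. On either strand, CGGAAG stood in 61.4% of cytosolic and 52.7% of mitochondrial promoters, against 16.9% of all 32851 promoters in the table. AAGATGG, the core bound by YY1, stood in 15.7% and 17.6%, against 6.34%. TATAA stood in 22.9% and 13.5%, against 24.9%, and CCAAT in 31.4% and 40.5%, against 37.4%. A run of 8 or more pyrimidines on the gene's strand, between 20 bases before and 30 bases after the start, stood in 48.6% of cytosolic promoters, 21.6% of mitochondrial ones and 19.0% of all. The 2 sets were thus close in their share of CGGAAG and apart in their share of pyrimidine runs.

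Cytosolic ribosomal protein messages were abundant and the mitochondrial ones were at a lower level. The summed cytosolic set took 1.75%, 1.80%, 1.93% and 1.86% of the counts in the 4 WT libraries and 1.96%, 1.82%, 2.0% and 1.94% in the 4 KO libraries. The mean was 1.93% ± 0.0776 in KO and 1.84% ± 0.0775 in WT (SD, n = 4 each), and the groups overlapped. The summed mitochondrial set took 0.381%, 0.390%, 0.388% and 0.383% in WT and 0.389%, 0.380%, 0.382% and 0.365% in KO. Its mean was 0.379% ± 0.0102 in KO and 0.386% ± 0.00422 in WT (SD, n = 4 each), and these groups overlapped too. The cytosolic set summed to 4.76 ± 0.183 times the mitochondrial set in WT and 5.09 ± 0.243 times in KO (SD, n = 4 each).

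**Figure D1:**
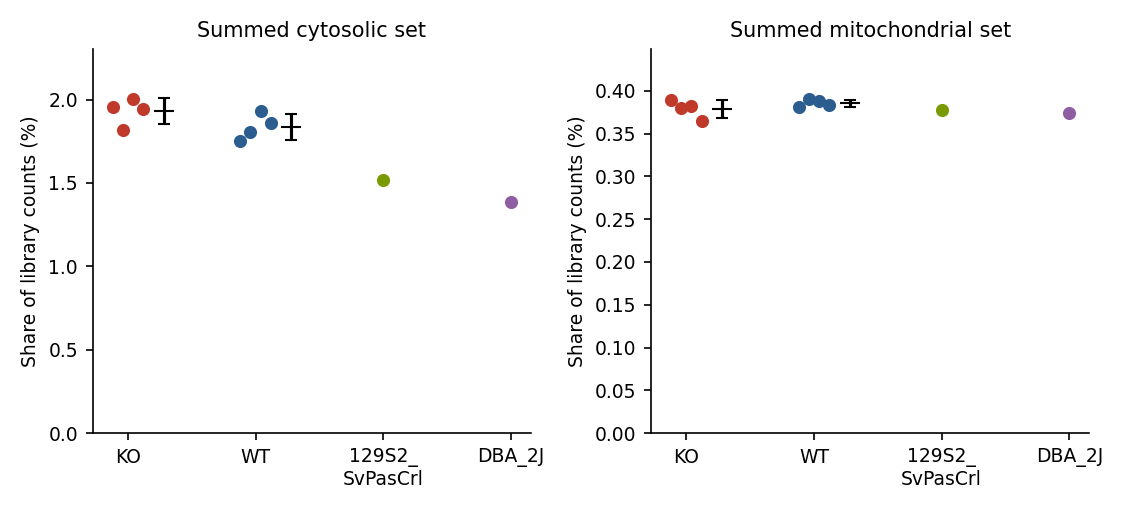
Summed counts of the 79 cytosolic (left) and 77 mitochondrial (right) ribosomal protein genes as a percentage of all counts in each library, on the vertical axes, by group. Points are libraries and bars are mean ± SD of 4; KO and WT points overlap in both panels, and the cytosolic sums of the 2 other strains lie below all 8 C57BL/6N libraries.

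Per kb of annotated exon, the median WT level was 289 CPM per kb over the cytosolic and 41.5 CPM per kb over the mitochondrial members. The highest cytosolic level was that of Rplp1, a flexible protein of the large subunit's P stalk, at 1085 ± 65.6 CPM per kb (SD, n = 4), and its WT range did not reach that of the next gene. Rpl41, the smallest ribosomal protein, followed at 632 ± 59.7 CPM per kb. Rpl10, which helps form the site of peptide transfer, stood at 573 ± 16.5 CPM per kb and Rps18 at 540.1 ± 41.6 CPM per kb. The ranges of Rpl41 and Rpl10, and of Rpl10 and Rps18, overlapped, and whether these neighbours differ within the same libraries was not tested. At the low end lay Rpl3l (1.67 CPM per kb), the paralog of Rpl3 known from striated muscle. Rps4l (15.4 CPM per kb) and Rps15a (24.6 CPM per kb) were the next lowest. Rps15a had a WT mean of 126 CPM over 5134 annotated exon bases, beside a median of 703 bases over the set.

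Mrpl12, the stalk protein of the mitochondrial large subunit, led its set at 266 ± 10.7 CPM per kb (SD, n = 4), above the whole range of the next gene. Mrps21 of the small subunit followed at 140.0 ± 8.53 CPM per kb, again clear of its neighbour. Mrpl20 (111 ± 5.18 CPM per kb) and Mrpl24 (108 ± 4.62 CPM per kb) overlapped. The lowest were Mrpl19 (4.87 CPM per kb), Mrpl1 (5.74 CPM per kb) and Mrpl15 (7.72 CPM per kb). Their annotated exons held 5000, 4188 and 4201 bases in that order, beside a median of 1053 bases over the set. Exon length here is the union of all annotated exons, so the scale understates genes with long exons that are rarely used. The exons of Mrpl19 share 1145 bases with those of Gcfc2, and reads there were counted for both.

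By their medians, members of both sets varied less between animals of a group than all genes at 10 CPM or more. The median within-group SD of log2 CPM was 0.065 over 78 cytosolic members at 10 CPM or more and 0.081 over 77 mitochondrial members. It was 0.107 over all 9819 genes at 10 CPM or more. That limit is only a floor, and the median WT level was 215 CPM over the cytosolic and 43.9 CPM over the mitochondrial members. Genes matched in level were not compared, here or for the intervals given below. Members lay on 19 chromosomes (cytosolic) and 17 chromosomes (mitochondrial).

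The main comparison asked whether ribosomal protein messages differ between KO and WT kidneys. Of 79 cytosolic members, Rps9 and Rpl12 were called higher in KO (adjusted p under 0.05, edgeR's quasi-likelihood test with Benjamini-Hochberg adjustment over all genes) and none was called lower. Over all 15547 genes 11% were called, 6.32% higher and 4.68% lower. At an unadjusted p under 0.05 stood 12 cytosolic members, against 26% of all genes. The median log2 fold change was 0.03 over the cytosolic set and −0.01 over all genes. The members ran from −0.32 to 0.24, with 52 estimates above and 27 below 0. For 74 of the 79, the 95% interval of the fold change lay wholly within a 1.25-fold difference either way. The other 5 were Rps9, Rpl12, Rps2, Rpl3l and Rps4l. Such an interval was found for 38.2% of all genes and for 58.3% of the 9819 genes at 10 CPM or more. That level was reached by 78 of the 79 members. Of those 9819 genes 13.6% were called, and their median log2 fold change was 0.01.

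Rps9, a protein of the small subunit at the entry of the messenger RNA channel (chr7:3704041-3706897 in mm10), read 460.4, 421, 392 and 445 CPM in KO and 350.3, 368, 368 and 374 CPM in WT. Every KO library lay above every WT library, and the log2 fold change was 0.23 (SE 0.0619, adjusted p = 0.0342 in edgeR). Rpl12, which sits at the base of the P stalk of the large subunit (chr2:32961712-32964045), read 257, 239, 257 and 265 CPM in KO and 200.0, 203, 226 and 232 CPM in WT. These groups were apart as well, and the log2 fold change was 0.24 (SE 0.0653, adjusted p = 0.0376 in edgeR). Neither call held without each single library. The Rps9 call was lost in 6 of the 8 edgeR fits that left out 1 library (without KO 1, 2 or 4 or WT 1, 2 or 3), and its adjusted p ran from 0.0195 to 0.0973 over the 8. The Rpl12 call was lost without KO 1, 3 or 4 or WT 1, 2 or 3 (adjusted p = 0.0288 to 0.0888 in edgeR). Its fold change stayed between 0.21 and 0.28 on the log2 scale, and that of Rps9 between 0.20 and 0.28. DESeq2, run on the same libraries, called 5 cytosolic members higher: Rps9, Rpl12, Rps2, Rps3 and Rplp0.

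Rps2, which lines the messenger RNA entry with Rps3 and Rps9, read 415, 361, 367 and 377 CPM in KO and 305, 325, 319 and 353 CPM in WT. The groups did not overlap, and the log2 fold change of 0.22 (SE 0.0659) missed the threshold with an adjusted p of 0.0524 in edgeR. It passed in 5 of the other fits, with adjusted p-values of 0.0136 in DESeq2, 0.0473 in limma voom, 0.0493 with no count filter, 0.0497 with the title form as a term and 0.0341 without WT 4. Rps3 read 419, 412, 430.4 and 439.7 CPM in KO and 366, 386, 402 and 382 CPM in WT (log2 fold change 0.15, adjusted p = 0.104 in edgeR). In all, 12 cytosolic members lay higher in every KO than in every WT library and 2 lay lower, while 17.7% of all genes were apart in that way, 9.77% higher and 7.95% lower. Those that lay higher included Rps9, Rpl12, Rps2, Rps3, Rps4x, Rps7, Rps20, Rpl10, Rpl10a, Rpl15 and Rplp0. Rpl37 and Rpl24, both of the large subunit, were the 2 that lay lower.

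**Figure D2:**
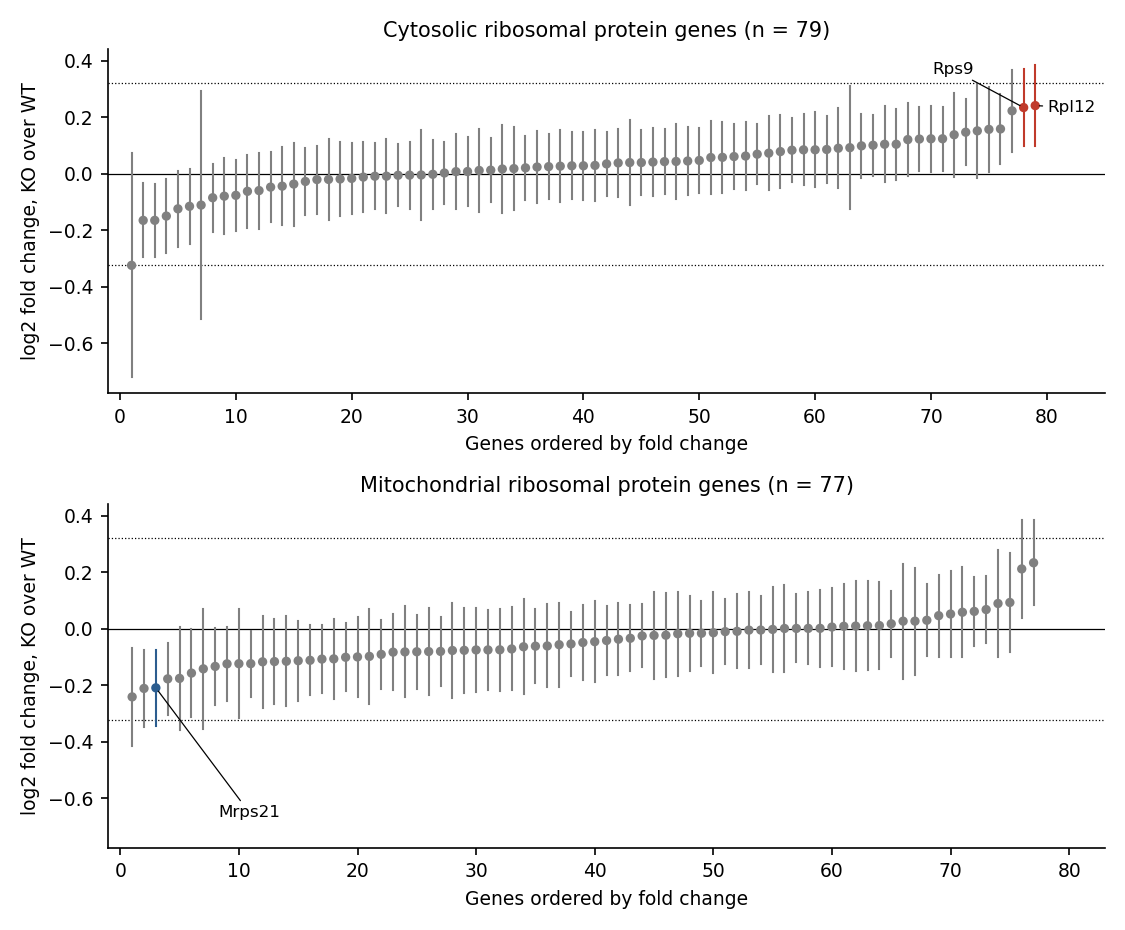
The log2 fold change of each member, KO over WT, on the vertical axes, with its 95% interval, for 79 cytosolic (top) and 77 mitochondrial (bottom) genes ordered by fold change on the horizontal axes. Dotted lines mark a 1.25-fold difference; Rps9 and Rpl12 (red, called higher) and Mrps21 (blue, called lower) are named, and all grey genes missed the threshold.

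Proteins of the P stalk, which recruits the elongation factors, had estimates at or above 0. Rplp0, the anchor of the stalk, read 698, 682, 700.2 and 761 CPM in KO and 609, 642, 657 and 636 CPM in WT (log2 fold change 0.16, adjusted p = 0.101 in edgeR). Rplp1 had a log2 fold change of 0.12 (adjusted p = 0.223) and Rplp2 one of 0.02 (adjusted p = 0.911), with interval bounds of −0.14 and 0.17. The 3 genes were not called.

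The lowest fold changes of the cytosolic set belonged to large subunit genes. Rpl3l read 1.83, 2.75, 2.0 and 1.94 CPM in KO and 2.62, 2.74, 2.80 and 2.48 CPM in WT, and its log2 fold change was −0.32 (adjusted p = 0.288 in edgeR, SE 0.180). Rpl37 read 85.6, 77.3, 88.6 and 80.4 CPM in KO and 91.1, 89.1, 96.5 and 95.3 CPM in WT, and its log2 fold change was −0.16 (adjusted p = 0.103, SE 0.0595). Rpl35a had the same fold change of −0.16 (SE 0.0589, adjusted p = 0.101), and its highest KO library, at 189 CPM, passed the lowest WT library, at 187 CPM. By subunit, the median was 0.03 over 47 large subunit genes and 0.04 over 32 small subunit genes.

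A few members with well-known further roles were picked with their values in view, and none was called. Rpl5 and Rpl11, which with 5S RNA bind Mdm2 when ribosome assembly fails, had log2 fold changes of 0.03 and −0.01. Rps6, the substrate of S6 kinase, had one of 0.04, with bounds of −0.08 and 0.16. Rps19, often mutated in Diamond-Blackfan anaemia, had one of 0.14 (adjusted p = 0.222 in edgeR). Rpsa, which doubles as a laminin receptor, had means of 490.4 ± 15.4 CPM (KO) and 491 ± 22.5 CPM (WT, SD, n = 4 each).

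Some ribosomal protein genes have a paralog, and no gene of the 8 pairs examined was called, against 11% of all tested genes. Whether a paralog takes the place of its partner was not tested. Rpl3 had a log2 fold change of 0.10 beside the −0.32 of Rpl3l. Rps27 and Rps27l stood at 0.06 and −0.03, Rpl22 and Rpl22l1 at −0.01 and −0.08, and Rpl7 and Rpl7l1 at 0.07 and −0.08. Rpl36a and Rpl36al stood at −0.04 and −0.07, and Rps4x and Rps4l at 0.08 and −0.11. Rpl39 had a log2 fold change of 0.09, while its paralog Rpl39l, known from testis, had counts in 1 of the 8 libraries (0.0241 CPM in KO 2). Rpl10 had one of 0.12, and Rpl10l, also known from testis, had no counts.

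Of 77 mitochondrial members, Mrps21 was called lower in KO and none was called higher, against 11% of all genes called. At an unadjusted p under 0.05 stood 8 members, against 26% of all genes. The median log2 fold change was −0.05, the members ran from −0.24 to 0.23, and 55 of the 77 estimates lay below 0, against 51.1% of all genes. For 70 of the 77, the 95% interval lay wholly within a 1.25-fold difference, against 38.2% of all genes. All 77 members were at 10 CPM or more, and 58.3% of all genes at that level had such an interval. Of the genes at that level 13.6% were called and 47.1% had estimates below 0. Genes at 10 CPM or more with under 1000 bases of exon, members left out, had a median of −0.06 (588 genes), and longer ones a median of 0.02. The median exon length was 703 bases over the cytosolic and 1053 bases over the mitochondrial members. Whether length has a part in the medians of the sets was not tested.

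Mrps21, a small subunit protein with a bacterial counterpart (chr3:95862652-95870619, minus strand), read 52.5, 49.0, 47.7 and 48.1 CPM in KO and 54.2, 54.3, 58.0 and 61.5 CPM in WT. All KO libraries lay below all WT libraries, and the log2 fold change was −0.21 (adjusted p = 0.0498 in edgeR, SE 0.0609). The call was lost without any 1 of the 8 libraries (adjusted p = 0.0555 to 0.128 in edgeR). Mrps34, a small subunit protein that bacteria lack, read 47.1, 42.0, 44.2 and 41.0 CPM in KO and 49.0, 52.4, 52.0 and 48.3 CPM in WT. Its groups did not overlap either, and its log2 fold change of −0.21 (SE 0.0616) had an adjusted p of 0.0501. It passed in 4 of the other fits, with adjusted p-values of 0.0261 in DESeq2, 0.0499 with RLE scaling, 0.0454 with the title form as a term and 0.0430 without KO 1. Mrps35 had the largest negative estimate of the set, −0.24 (SE 0.0795, adjusted p = 0.0778 in edgeR). It read 53.4, 61.2, 62.0 and 53.7 CPM in KO and 68.1, 75.8, 67.9 and 60.4 CPM in WT, and its groups overlapped.

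The highest estimates were those of Mrpl33, Mrps22 and Mrpl54. Mrpl33, a small protein of the large subunit, read 31.3, 30.3, 27.7 and 29.0 CPM in KO and 23.1, 25.3, 26.9 and 25.1 CPM in WT. The groups were apart, and the log2 fold change of 0.23 (SE 0.0688) had an adjusted p of 0.0520 in edgeR. Mrps22 read 24.1, 24.3, 22.4 and 21.5 CPM in KO and 20.8, 20.9, 17.5 and 20.5 CPM in WT (log2 fold change 0.21, adjusted p = 0.114). Mrpl54 had a log2 fold change of 0.09 (adjusted p = 0.511), and its groups overlapped. In all, 2 mitochondrial members (Mrpl33 and Mrps22) lay higher in every KO library and 5 lay lower (Mrps21, Mrps34, Mrps5, Mrps11 and Mrps10), against 9.77% of all genes higher and 7.95% lower.

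**Figure D3:**
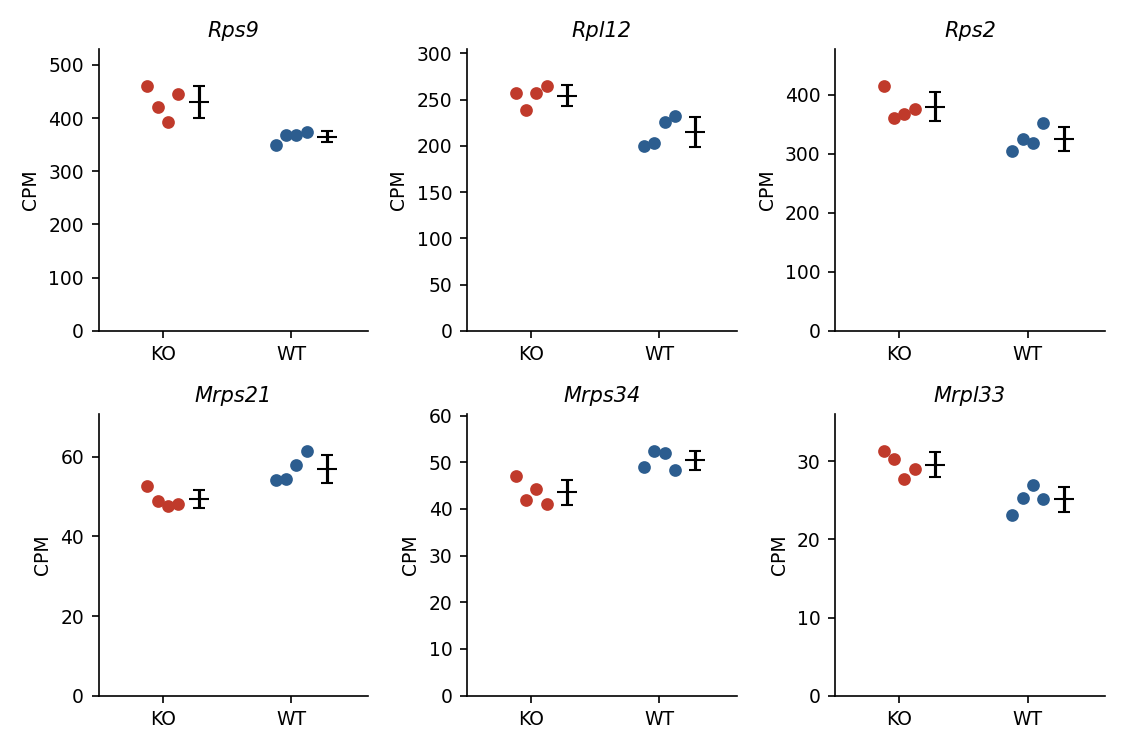
CPM in each of the 8 C57BL/6N libraries (vertical axes, starting at 0) for 6 members with the smallest adjusted p-values of their sets. Points are libraries and bars are mean ± SD of 4; KO and WT do not overlap in any panel, and the means differ by 1.18-fold at most.

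By subunit, the median over the 29 small subunit genes was −0.07, with 22 estimates below 0, and the median over the 48 large subunit genes was −0.03, with 33 below 0. The difference between the subunits was not tested. Mrpl12, the most abundant member, had means of 243 ± 3.69 CPM (KO) and 253 ± 10.2 CPM (WT, SD, n = 4 each, log2 fold change −0.05, bounds −0.17 and 0.06).

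Titles with and without a leading E each held 2 KO and 2 WT animals, and the labels do not say what the form marks. The cytosolic median was 0.03 among titles with an E and 0.03 among those without, and the mitochondrial medians were −0.07 and −0.02. A test of the difference between the forms called no gene in edgeR (1004 genes, or 6.46%, at an unadjusted p under 0.05), with 1 member of each set at that unadjusted level. Rps9 had log2 fold changes of 0.18 and 0.29, Rpl12 of 0.19 and 0.30 and Mrps21 of −0.32 and −0.10 in the 2 forms.

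Ribosomal protein genes have many processed copies in the mouse genome, and primary alignments were counted whether or not a read also aligned elsewhere. Among 100-base stretches of a gene's annotated transcripts, the share found letter for letter in a gene elsewhere had a median of 22.1% over 78 cytosolic members and 0% over 77 mitochondrial members. It was 8.29% for Rps9, 46.8% for Rpl12, 43.8% for Rps2 and 2.18% for Mrps21. The 21 cytosolic members under 10% had a median log2 fold change of 0.03 with Rps9 called, and the 57 at 10% or more had a median of 0.03 with Rpl12 called. Levels of the second kind are uncertain, since reads could be split among copies. Exons of 11 cytosolic and 10 mitochondrial members overlapped those of another gene, and without a strand setting such genes share reads. Rps27 and Rps27rt, with 345 shared bases, had all but the same values (112 ± 6.65 and 111 ± 6.76 CPM in KO, SD, n = 4).

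Genes of ribosomal proteins, or paralogs of such genes, whose symbols fall outside the naming rule were not called, against 11% of all tested genes. The cytosolic ones numbered 8, with a median log2 fold change of −0.02. Among them were Fau (−0.16), Rpl22l1 (−0.08), Rpl7l1 (−0.08), Rpl36al (−0.07), Gnb2l1, the older symbol of Rack1 (0.06), Rps27rt (0.06) and Rps3a1 (0.07). Fau, fused to a ubiquitin-like domain, was the lowest and had means of 272 ± 14.8 CPM (KO) and 303 ± 15.6 CPM (WT, SD, n = 4 each, adjusted p = 0.127 in edgeR). The mitochondrial list of 7, which counts Mrpl57 again, had a median of −0.12. Aurkaip1 read 79.5, 71.6, 72.5 and 76.2 CPM in KO and 82.5, 82.1, 85.9 and 86.1 CPM in WT, with no overlap, and missed the threshold (log2 fold change −0.17, adjusted p = 0.0721). Gadd45gip1 stood at −0.14, Ptcd3 at −0.13, Dap3 at −0.12, Chchd1 at −0.07 and Ict1, the older symbol of Mrpl58, at 0.05.

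The lists of genes that build, use or control ribosomes, like the members, were drawn up with earlier results of these data known. Of 14 other messages with a TOP sequence, 4 were called higher and none lower, with a median log2 fold change of 0.12. The counts in this and the following lists stand beside 6.32% of all genes called higher and 4.68% called lower. Tpt1 read 1632, 1608, 1628 and 1448 CPM in KO and 1124, 1239, 1225 and 1348 CPM in WT, a log2 fold change of 0.36 (adjusted p = 0.00919 in edgeR). Pabpc1, the poly(A) binding protein, had one of 0.28 (adjusted p = 0.0156), Eef1a1, the factor that delivers tRNA, one of 0.24 (adjusted p = 0.0270), and Hnrnpa1 one of 0.23 (adjusted p = 0.0326). The Eef1a1 call was lost without some single libraries (adjusted p = 0.0364 to 0.0702 in edgeR).

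Of 44 cytosolic assembly factors, 2 were called higher and 1 lower, with a median of 0.06. Utp20 of the small subunit processome had a log2 fold change of 0.39 (adjusted p = 0.0236), Eif6, which keeps new large subunits from joining too early, one of 0.35 (adjusted p = 0.0357), and Nop10 of the H/ACA particles one of −0.22 (adjusted p = 0.0320, all in edgeR). Each of these 3 calls was lost without some single libraries, with adjusted p-values of up to 0.0624, 0.101 and 0.0938 in edgeR. None of 12 genes of RNA polymerase I and its factors was called (median 0.03), nor any of 9 chaperones of single ribosomal proteins (median 0.01) or of 11 genes for rescue of stalled ribosomes (median −0.03). The gene of smallest p in these 3 lists was Rrn3 (0.14, adjusted p = 0.192), Heatr3 (0.16, adjusted p = 0.156) and Ankzf1 (−0.15, adjusted p = 0.138), in that order.

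Of 23 genes that control TOP translation or ribosome production, Myc and Eif4ebp1 were called higher and the list had a median of 0.02. Myc, a transcription factor that drives ribosome production, read 31.4, 22.0, 34.7 and 24.0 CPM in KO and 13.9, 16.6, 8.56 and 16.7 CPM in WT (log2 fold change 1.01, SE 0.205, adjusted p = 0.0105 in edgeR). Eif4ebp1, an mTORC1 substrate that holds back cap-dependent initiation, read 38.0, 34.7, 30.9 and 25.3 CPM in KO and 18.6, 18.8, 16.5 and 17.1 CPM in WT (log2 fold change 0.86, SE 0.115, adjusted p = 0.00101). Both genes were apart between the groups. Of 28 initiation factors, Eif3a (0.26, adjusted p = 0.0345) and Eif5b (0.21, adjusted p = 0.0362) were called higher and the list had a median of 0.08. Both calls were lost without some single libraries (adjusted p up to 0.0891 and 0.105 in edgeR). Of 9 noncoding snoRNA host genes, Snhg8 was called lower (−0.34, adjusted p = 0.0378, up to 0.109 without 1 library) and the list had a median of −0.09.

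On the mitochondrial side, none of 15 translation factors (median −0.01) and none of 17 aminoacyl-tRNA synthetases (median −0.03) was called, and the smallest p belonged to Mtif3 (−0.16, adjusted p = 0.0540 in edgeR) and Tars2 (−0.19, adjusted p = 0.0697). Of 19 mitochondrial assembly factors, Mterfd2, the older symbol of Mterf4, was called lower (−0.34, adjusted p = 0.0201, up to 0.0584 without 1 library), and the median was −0.05. Of 10 regulators of nuclear genes for mitochondria, Pprc1, a coactivator related to PGC-1, was called higher (0.37, adjusted p = 0.0438, up to 0.105 without 1 library). That list had a median of −0.04. Of 7 ribosomal protein pseudogene entries 5 were tested and none was called, and Rplp2-ps1 had the smallest p (−0.23, adjusted p = 0.219).

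**Figure D4:**
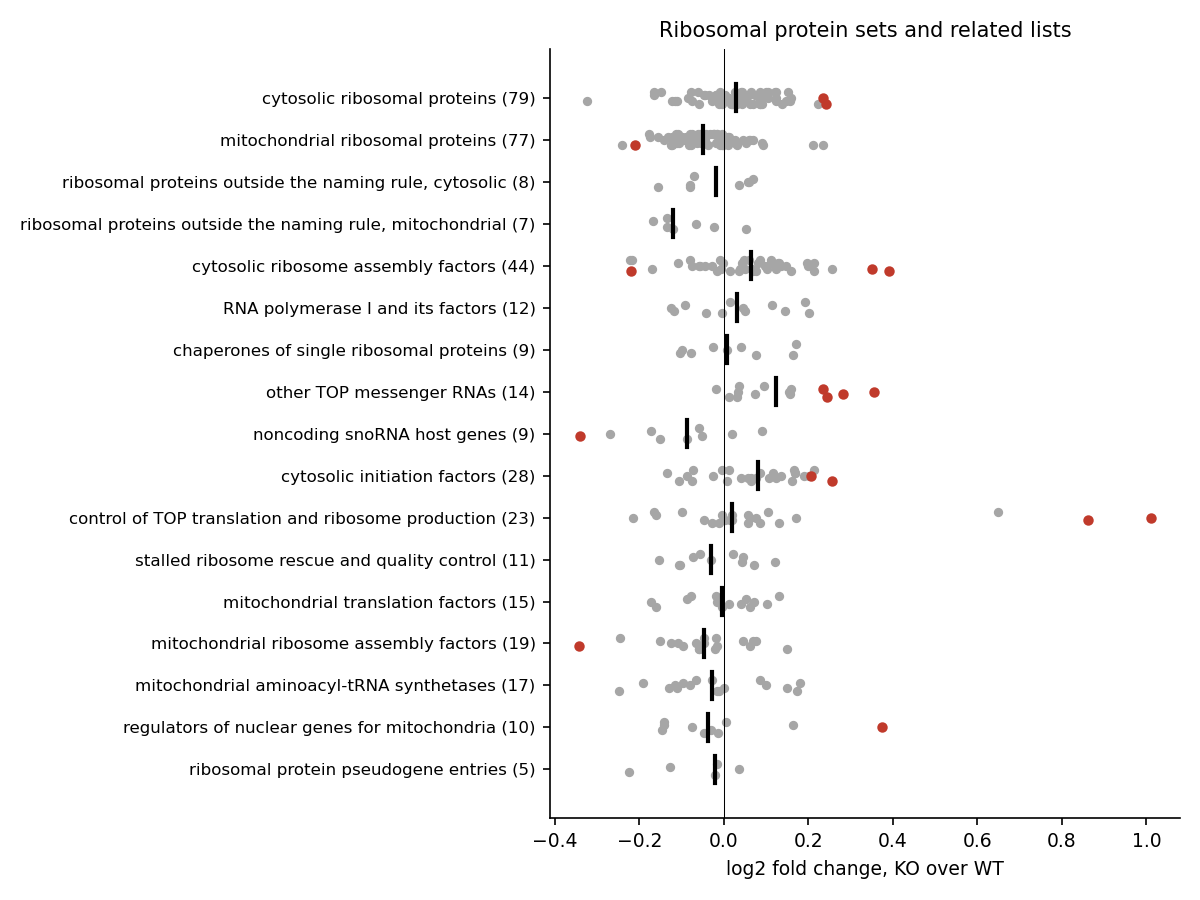
The log2 fold change, KO over WT, on the horizontal axis, of each gene in the ribosomal protein sets and related lists (number tested in parentheses). Grey points missed the threshold, red points were called and black bars are medians; the ribosomal protein sets lie close to 0, and the largest fold changes are those of Myc (1.01) and Eif4ebp1 (0.86).

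The 2 other strains had 1 library each, so their differences have no replicate check and no test. Levels here use scaling over all 10 libraries, and differences are on the scale of log2(CPM + 1). In the 129S2_SvPasCrl library, 72 of 79 cytosolic members lay below all 4 WT libraries of C57BL/6N, against 32.4% of the 9819 genes at 10 CPM or more. In the DBA_2J library 70 of 79 did, against 34.9%. The median differences were −0.24 and −0.29, and 66 of 79 lay below in both strains, against 23% of those 9819 genes. The mitochondrial set was spread to both sides. Of its 77 members, 26 lay below and 19 above all WT libraries in 129S2_SvPasCrl (36.3% of those 9819 genes above), with a median of 0.02. In DBA_2J 24 lay below and 32 above (43.1% of those 9819 genes above), with a median of 0.04. In both strains 18 of the 77 lay below.

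**Figure D5:**
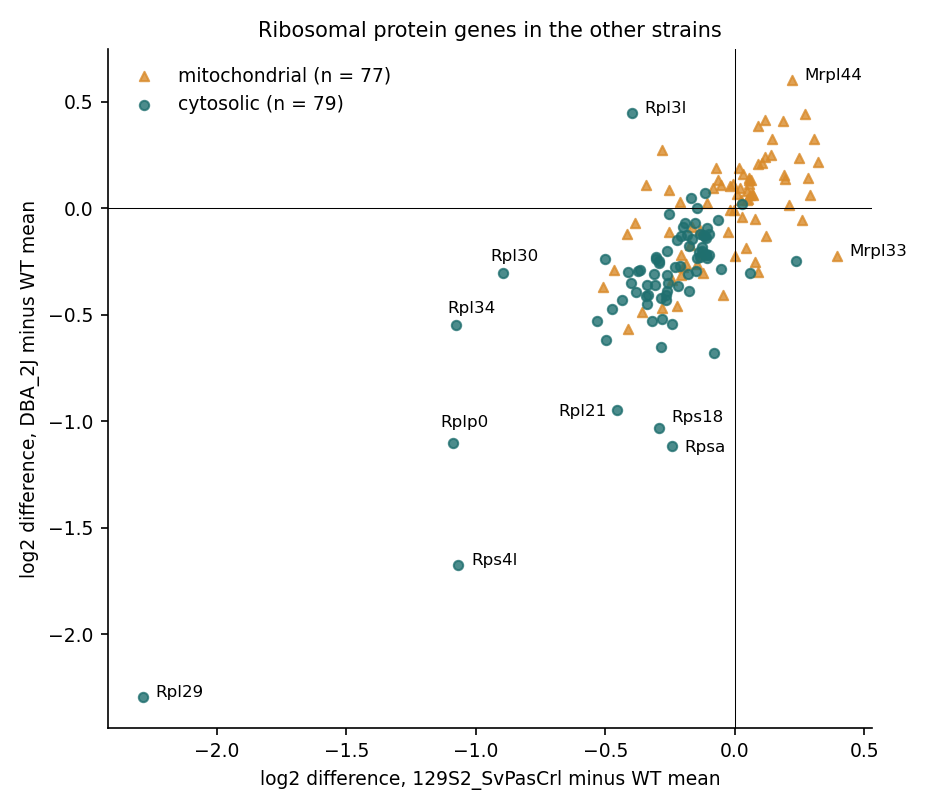
Difference of each member from the mean of the 4 C57BL/6N WT libraries on the scale of log2(CPM + 1), in the 129S2_SvPasCrl library (horizontal axis) and the DBA_2J library (vertical axis). Points are genes, with 1 library per strain; most cytosolic members lie below 0 on both axes, Rpl29 is lowest at −2.29 and −2.30, and mitochondrial members lie on both sides of 0.

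The members with the largest differences, picked with their values in view, were cytosolic. Rpl29 of the large subunit ranged from 162 to 171 CPM in WT and read 33.3 CPM in 129S2_SvPasCrl and 33.0 CPM in DBA_2J. Rplp0 ranged from 603 to 651 CPM in WT and read 296 and 293 CPM. These 2 genes were about as low in 1 strain as in the other. Rpl34 ranged from 153 to 164 CPM in WT and read 74.3 CPM in 129S2_SvPasCrl and 108 CPM in DBA_2J. Rpl30 read 91.1 and 138 CPM beside 162 to 179 CPM in WT, and both genes were thus lower in 129S2_SvPasCrl than in DBA_2J.

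Other members were lowest in DBA_2J. Rpsa, at 461 to 510.2 CPM in WT, read 411 CPM in 129S2_SvPasCrl and 224 CPM in DBA_2J. Rps18, at 252 to 298 CPM in WT, read 229 and 136 CPM, and Rps2, at 302 to 351 CPM in WT, read 305 and 201 CPM. Rps4l, at 11.7 to 15.8 CPM in WT, read 6.28 and 3.77 CPM. Rps9 was at 334 CPM in 129S2_SvPasCrl and 380.0 CPM in DBA_2J beside 347 to 372 CPM in WT, below that range in the first strain and above it in the second. Rpl3l, at 1.76 and 3.96 CPM beside 2.47 to 2.77 CPM in WT, also lay below in the first and above in the second. Among mitochondrial members, Mrpl44 read 49.1 and 64.3 CPM beside 39.0 to 47.3 CPM in WT, and Mrpl14 read 36.8 and 33.0 CPM beside 45.0 to 52.2 CPM.

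Short genes outside the sets also lay lower in these libraries. Genes at 10 CPM or more with under 1000 bases of exon, members left out, had medians of −0.13 in 129S2_SvPasCrl and −0.18 in DBA_2J. Of these 588 genes, 322 (54.8%) and 366 (62.2%) lay below all WT libraries. Genes of 1000 bases or more had medians of 0.03 and 0.06, and 30.5% and 32.7% of them lay below. Of the cytosolic members 91.1% and 88.6% did. Cytosolic members with under 10% of shared stretches had medians of −0.21 and −0.25, and those at 10% or more had −0.24 and −0.29. Rpl29 shared 23.5% of its stretches with genes elsewhere, 24 of them pseudogenes, Rpl21 shared 12.3% (39 pseudogenes) and Rps2 shared 43.8% (36 pseudogenes). Rplp0 shared 14.6% and Rpl34 shared 5.79%, and the exons of Rpl34 overlap those of Rpl34-ps1 by 413 bases. The part that gene length and shared sequence have in the strain differences was not tested.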

How the data were processed

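Kidney RNA of 10 mice was captured by its poly(A) tail and sequenced in single-end reads of 100 bases, per the labels' protocols. The submitters' processing notes name STAR, featureCounts and edgeR and the builds mm10 and GRCm38. Primary alignments were counted over the exons of each gene of the UCSC mm10 annotation by featureCounts 1.5.2, per the file headers. Reads in several genes went to each, and no strand option was set. The authors deposited raw counts per library, a count matrix that equals them once joined, and normalized log2 values of 13645 genes. Those deposited log2 values equalled log2 CPM with TMM scaling to within 4.97e-14 and were used for that check only.

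Groups came from the labels. Each library is a separate animal, as the design text gives 4 males per genotype, and replicate numbers follow accession order. KO and WT counts of C57BL/6N went through filterByExpr, TMM scaling and the quasi-likelihood test of edgeR 4.0.16 in R 4.3.3. Adjusted p-values are Benjamini-Hochberg values over 15547 genes. The standard error is the log2 fold change divided by the square root of F. The biological coefficient of variation was 12.3%. Scripts were tested on simulated data. CPM came from the deposited counts with the same scaling, or over 10 libraries for the strains. Depth is lowest in WT 1 (19.79 M), where 1 CPM before filtering and TMM scaling stands for 19.79 counts.

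Members and lists were chosen with earlier results of these data known. Of 250 list symbols 242 matched directly and 8 by an older symbol. Named members are the called ones, the 3 highest and 3 lowest fold changes, the 4 highest and 3 lowest levels per kb, 8 paralog pairs and, per list, up to 3 called genes or the 1 of smallest p. Hnrnpa1, Rps3, Rplp0, Rplp2, genes listed for groups that do not overlap and the genes named for the strains fall outside that rule and were chosen after their values were seen. Shared 100-base stretches were counted over GENCODE M21 transcripts, on both strands (157 of 158 members matched), and the alternative built on them was chosen after seeing the data. Some genes that the naming rule picks are not reported here. Promoters came from RefSeq, GRCm38.p6. Alternatives were RLE scaling, TMM without the members, DESeq2 1.42.0, voom in limma 3.58.1, no count filter, the title form as a term, thinning, narrower member filters and leaving out each library.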

Additional observations from a re-analysis of the deposited data

Results flagged for a closer look

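In 142 groups of 4 libraries, 1 per genotype for each named gene and each summed set, the lowest or highest library was set against the other 3. Groups without any counts, such as those of Rpl10l, are among the 142 and could not be flagged. In 7 groups it stood farther apart than Dixon's 95% critical ratio allows, and chance gives about 1 in 20 such groups. Among ribosomal protein genes, Mrps22 read 17.5 CPM in WT 3 while the other WT libraries read 20.5 to 20.9 CPM. Rpl39l read 0.0241 CPM in KO 2 and 0 in the other KO libraries. Among related genes, Tpt1 read 1448 CPM in KO 4 beside 1608 to 1632 CPM in the other KO libraries. Eef1a1 read 3512 CPM in WT 4 beside 3423 to 3431 CPM in the other WT libraries, and Tars2 read 41.3 CPM in WT 4 beside 37.5 to 38.0 CPM. Mterfd2 read 28.8 CPM in WT 2 beside 24.7 to 25.2 CPM in the other WT libraries. Ehhadh itself read 3439 CPM in WT 1 beside 2100.2 to 2232 CPM in the other WT libraries.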

How the results depend on the processing

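No called value and neither median changed direction under the alternatives run, while some named genes that were not called, such as Mrpl20 (−0.04 to 0.02 with 1 library left out), changed sign near 0. The median log2 fold change of the cytosolic set was 0.02 to 0.06 and that of the mitochondrial set −0.06 to −0.03 in the fits that left out 1 library. Cytosolic members called higher (2 in the main analysis) numbered 5 in DESeq2, 3 in voom, with no count filter and with the title form as a term, 1 among members with under 10% of shared stretches and 0 to 3 with 1 library left out. Mitochondrial members called higher (0) numbered 1 in DESeq2 and 1 after thinning to the smallest library, Mrpl33 in both. Mitochondrial members called lower (1) numbered 2 with RLE scaling, 2 in DESeq2, 2 with the title form as a term, 0 with no filter on low counts and 0 to 1 with 1 library left out. The mitochondrial sum in KO was 0.983 of that in WT by library totals and 0.967 with TMM factors, and the cytosolic one 1.05 and 1.03. Over all genes, 610 to 916 were called higher and 381 to 722 lower with 1 library left out. Leaving out KO 1 or WT 3 moved the higher count by over 1.5 times (to 610 and 625), and leaving out KO 1, KO 2, WT 1 or WT 3 the lower count (to 395, 407, 465 and 381). Of 16 fits, Rps9 and Rpl12 were called in 10 each, Mrps21 in 7, Rps2 in 5 and Mrps34 in 4. Over the named genes, 916 values stayed on the same side of the threshold, 73 called values missed it and 16 others passed it. Why calls differed between the fits was not tested. No paired analysis was possible because replicates were numbered in the order of their records, which ties no KO animal to a WT animal.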

Other observations

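Rps3a1, a small subunit gene outside the naming rule, ranged from 310.1 to 324 CPM in the 4 WT libraries of C57BL/6N and read 127 CPM in the 129S2_SvPasCrl library and 204 CPM in the DBA_2J library. Dap3 of the mitochondrial small subunit ranged from 83.7 to 87.7 CPM in those WT libraries and read 87.5 and 59.4 CPM. Snhg8, a host of a small nucleolar RNA, ranged from 16.1 to 17.3 CPM and read 12.7 and 7.91 CPM. Myc ranged from 8.49 to 16.6 CPM in WT and read 8.22 and 3.94 CPM, and Eif4ebp1 ranged from 16.3 to 18.7 CPM and read 9.82 and 9.04 CPM. These genes were chosen after their values were seen, and with 1 library per strain the differences have no replicate check.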
